A study of Homo sapiens with 8 samples.

Results

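The D cyclins, the inhibitors of cyclin-dependent kinases (CDKs) and *RB1* were followed as 10 genes chosen by name for their part in the control of G1: *CCND1*, *CCND2*, *CCND3*, *CDKN1A*, *CDKN1B*, *CDKN1C*, *CDKN2A*, *CDKN2B*, *CDKN2C* and *RB1*. They are 10 of 33791 genes with summed counts, and each of them had enough counts to be tested, as had 14653 genes in all. RNA-seq was performed on PNT2 cells, a human prostate epithelial line immortalized with SV40, in 4 groups of 2 libraries (replicates A and B): WT, *ERF* KD, *CIC* KO and *CIC-ERF* codeletion. WT is the parental line, *ERF* KD carries a short hairpin RNA against *ERF*, *CIC* KO carries Cas9 and a guide against *CIC*, and *CIC-ERF* codeletion carries both constructs, so that the name stands for a knockdown with a knockout. Several hairpins and guides were used to derive the lines under puromycin or blasticidin. For the double-loss lines the methods name a single hairpin, combined with either guide. Beyond that, neither the labels nor the methods say which hairpin or guide a library holds or whether A and B are separate cultures. For this reason p-values measure only the spread between these libraries. The comparisons ask what the loss of either transcriptional repressor, or of both, does to the expression of these genes.

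G1 is the part of the cell cycle in which a cell commits to a new round of DNA synthesis. D cyclins activate CDK4 and CDK6, which phosphorylate the RB1 protein and release E2F transcription factors. The INK4 inhibitors (*CDKN2A*, *CDKN2B* and *CDKN2C*) bind CDK4 and CDK6, while the CIP/KIP inhibitors (*CDKN1A*, *CDKN1B* and *CDKN1C*) act on several cyclin-CDK complexes. SV40 large T antigen binds both RB1 and p53, the activator of *CDKN1A*. *CDKN2A* is lost or silenced in many tumors, and *RB1* is often lost in advanced prostate cancer.

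The labels of the single-loss libraries stand against their contents. The names of the 4 deposited tables of these libraries carry the opposite letters to the labels. *ERF*, given as CPM (counts scaled to library size), was at 55.9 ± 0.0566 in WT, at 79.5 ± 2.43 in the libraries labelled *ERF* KD, at 15.3 ± 4.98 in those labelled *CIC* KO and at 11.01 ± 0.894 in *CIC-ERF* codeletion (mean ± SD, n = 2). *CIC* was at 129 ± 0.756, 109 ± 0.303, 132 ± 0.434 and 78.6 ± 17.4 CPM in the same order, and a guide need not lower the mRNA of its target. The labels were kept, and the word labelled stands before both names as a reminder that every direction resting on them holds for the label only. Exchanging both labels would leave the comparison of *CIC-ERF* codeletion with WT and the interaction as they are.

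The libraries labelled *ERF* KD also stood apart in their cell type markers. The summed level of 6 epithelial markers, in TPM (relative abundance corrected for transcript length), was 1650 to 2020 there, against 3720 to 4150 in WT, 3910 to 4570 in labelled *CIC* KO and 3810 to 4470 in *CIC-ERF* codeletion. That of 7 mesenchymal markers was 1410 to 1710 TPM there, against 146 to 220 in WT, 165 to 214 in labelled *CIC* KO and 85.8 to 140 in *CIC-ERF* codeletion. The basal markers *KRT14* and *TP63* were at or below 3 counts over both labelled *ERF* KD libraries, and no basal marker was that low in another group. Of the 4 basal markers, 3 had a mean of at least 1 TPM in WT and in labelled *CIC* KO. In labelled *ERF* KD and also in *CIC-ERF* codeletion 2 of the 4 did. *KLK3*, a defining luminal prostate marker, was at or below 3 counts in every group, and the 5 luminal markers summed to at most 10.5 TPM. The part of these differences in the results below was not tested. Library totals ran from 19477473 to 25813157 estimated counts.

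*CDKN2A* encodes p16INK4A and p14ARF, which share exon 2 in different reading frames and have separate first exons. The exon 1 to exon 2 junctions of a transcript of each kind are shown because these first exons decide which product a count belongs to. Exon 1 is in lower case and exon 2, which both share, in capitals. The bases are coding in both transcripts, on the minus strand of chromosome 9 (GENCODE release 29, GRCh38):
CDKN2A-201, exon 1α: cggaggccgatccagGTCATGATGATGGGC
CDKN2A-214, exon 1β: ttcctagaagaccagGTCATGATGATGGGC
Exon 1α lies at chr9:21974678-21975098, exon 1β at chr9:21994139-21994624, 19.0 kb upstream, and the shared exon 2 at chr9:21970902-21971208.

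*CDKN1A* is the one inhibitor that passed a test by edgeR in a fit of all 8 libraries with the filter on low counts and no block. The 250 bases before its RefSeq start are shown as its nearest regulatory sequence (GRCh38.p14, plus strand, chr6:36678464-36678713), with GGAA, the core that ETS factors such as ERF bind, or its complement in capitals:
CDKN1A: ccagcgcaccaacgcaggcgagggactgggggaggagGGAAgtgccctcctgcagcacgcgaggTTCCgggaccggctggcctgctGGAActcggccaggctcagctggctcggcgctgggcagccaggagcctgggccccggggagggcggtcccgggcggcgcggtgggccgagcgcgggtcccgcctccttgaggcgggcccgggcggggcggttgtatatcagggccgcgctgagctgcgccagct
This stretch holds 3 such matches. Windows of 300 bases (250 before and 50 after a start) were given for 7 of the 10 genes, 12 windows in all. GGAA, on either strand, was found in each of the 12, as in 95.5% of 35116 windows of all genes. The octamers bound by CIC (TGAATGAA, TGAATAAA, TCAATGAA and TCAATAAA, either strand) were found in 1 window, an internal start of *RB1*, against 4.52% of all windows. A match is a description of these letters and not of a bound site.

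In WT, on the TPM scale, *CCND1* led the 10 genes at 317 ± 10.6 (SD, n = 2), above 98% of protein-coding genes. *CDKN2A* followed at 169 ± 29.7 TPM and *CDKN1A* at 110 ± 35.2 TPM, and the libraries of these 3 genes did not overlap. *CCND2* (62.3 TPM), *CDKN1B* (58.6), *RB1* (52.4), *CDKN2B* (50.8) and *CCND3* (49.1) formed a run in which each gene overlapped the next. *CDKN2C* was lower at 14.8 ± 0.515 TPM. *CDKN1C* was close to absent at 0.336 ± 0.28 TPM, with 13 and 2 estimated counts.

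The order of levels differed between groups, and of the 10 genes only *CCND1*, *CDKN2A* and *CDKN1C* kept their place in all of them. *RB1* had rank 6 in WT, rank 3 in labelled *ERF* KD, where it overlapped *CDKN1B* below it, and rank 7 in the other groups. *CCND3* had rank 8 in WT, rank 5 in labelled *ERF* KD and in *CIC-ERF* codeletion, and rank 4 in labelled *CIC* KO at 61.8 TPM. Its mean in labelled *ERF* KD was not higher than in WT (46.9 against 49.1 TPM), and *CCND2* and *CDKN1A* stood below it there. In the libraries labelled *ERF* KD, *CCND2* stood ninth of the 10 at 7.83 ± 6.10 TPM and *CDKN1A* seventh at 29.3 ± 11.5 TPM, the latter overlapping *CDKN2B* above it and *CDKN2C* (23.9 TPM) below it. In labelled *CIC* KO, *CDKN1A* (164 ± 10.5 TPM) lay level with *CDKN2A* (164.5 ± 7.68 TPM). In *CIC-ERF* codeletion, *CDKN1A* was sixth at 53.4 ± 23.8 TPM, and *CCND2*, *CDKN1B*, *CCND3*, *CDKN1A*, *RB1* and *CDKN2B* each overlapped the next. *CCND1* ranked first and *CDKN2A* second in every group.

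**Figure D1:**
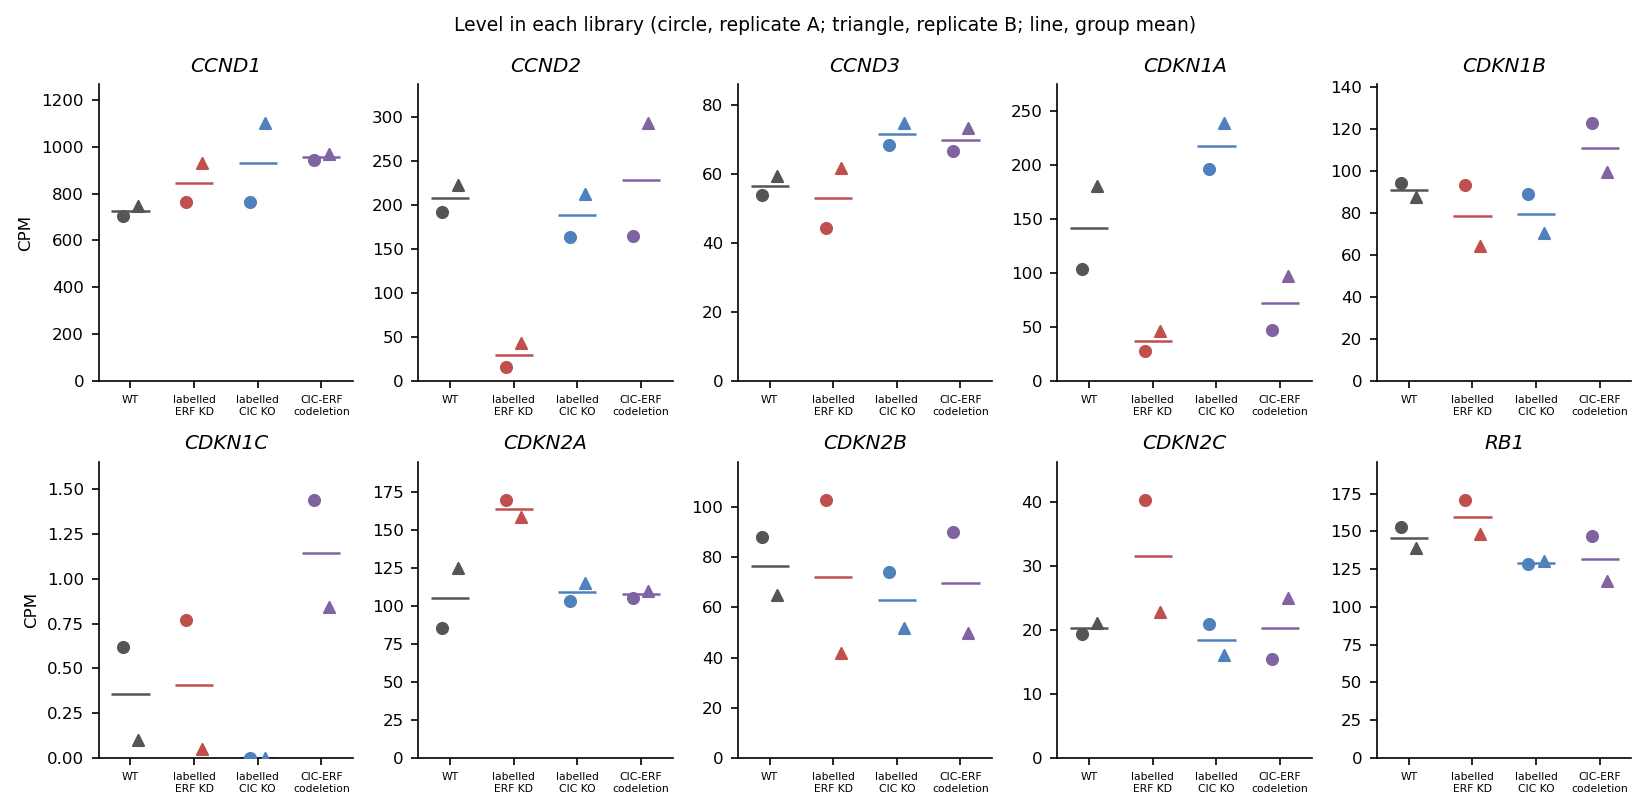
Level of each gene in each library, in CPM on a linear axis from 0, by group (circles, replicate A; triangles, replicate B; lines, group means). *CCND2* sits at 15.2 and 42.7 CPM in labelled *ERF* KD and above 160 CPM in all other libraries, while *CDKN1A* is below 100 CPM in labelled *ERF* KD and *CIC-ERF* codeletion and above it elsewhere.

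Among the D cyclins, *CCND2* was low in the libraries labelled *ERF* KD and in no other group. *CCND2* (chr12:4273772-4305350) encodes cyclin D2. It was at 192.5 and 223 CPM in WT replicates A and B, at 15.2 and 42.7 in labelled *ERF* KD, at 164 and 212.5 in labelled *CIC* KO, and at 165 and 293 in *CIC-ERF* codeletion. Both labelled *ERF* KD libraries were below the other 6, and the other 3 groups overlapped each other. In bulk RNA a smaller number of expressing cells and less RNA per cell cannot be told apart. *CCND2* fell by 2.84 on the log2 scale in labelled *ERF* KD against WT (SE 0.465, adjusted p = 0.00703, edgeR, quasi-likelihood test, adjusted by Benjamini-Hochberg over all genes). It was lower by the same test in labelled *ERF* KD than in labelled *CIC* KO (log2 fold change -2.70, SE 0.463, adjusted p = 0.00874), and higher in *CIC-ERF* codeletion than in labelled *ERF* KD (2.98, SE 0.468, adjusted p = 0.00553). Against WT, *CCND2* differed by -0.14 (SE 0.43) in labelled *CIC* KO and by 0.14 (SE 0.43) in *CIC-ERF* codeletion, neither of which passed the test.

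The interaction asks whether the change from labelled *CIC* KO to *CIC-ERF* codeletion differs from the change from WT to labelled *ERF* KD. For *CCND2* it was 3.13 on the log2 scale (SE 0.626, adjusted p = 0.0313, edgeR). It was the sole one of the 10 genes that passed, against a background of 4.15% of all genes tested. The call was lost when any WT, labelled *CIC* KO or *CIC-ERF* codeletion library was left out (log2 fold change 2.65 to 3.498, adjusted p 0.0514 to 0.0969), and no value was below 0. Of the 4 *CCND2* transcripts, the leading one held 65.5% to 100% of the gene's TPM. Of its 31-base stretches 0.667% also occur in other genes, mainly the pseudogene *CCND2P1*. Over all its transcripts, the gene *CCND2* also shares 989 exonic bases with *AC008012.1* on the same strand and 126 with the antisense *CCND2-AS1*, and *CDKN1A* shares 146 with *DINOL*. These other genes have no summed counts here, so their part in the counts of *CCND2* and *CDKN1A* could not be seen.

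*CCND1*, which encodes cyclin D1 (chr11:69641087-69654474), did not pass in any of the 7 comparisons. It was at 704 and 747.5 CPM in WT, 763.5 and 929 in labelled *ERF* KD, 764 and 1101 in labelled *CIC* KO, and 944 and 967 in *CIC-ERF* codeletion. Each library of the other groups was above both WT libraries, yet replicates of labelled *CIC* KO differed by more than the group means did. The log2 fold change in labelled *ERF* KD against WT was 0.22 (SE 0.192, adjusted p = 0.533, edgeR). *CCND1* shares 497 exonic bases with *LTO1* on the opposite strand, whose change in that comparison was 0.09 (SE 0.141), and reads of the pair cannot be told apart without strand. Of the 6 tested neighbours of *CCND1* (*MRGPRF*, *TPCN2*, *MYEOV*, *LTO1*, *ANO1* and *FADD*) 1 passed there, the chloride channel gene *ANO1*, which fell by 2.25 (adjusted p = 0.0263). *CCND1* held 73.9% and 74.1% of the summed D cyclin TPM in WT and 85.2% and 88.4% in labelled *ERF* KD, where *CCND2* held 0.965% and 2.67% against 14.5% and 14.6% in WT. The sum over the 3 D cyclins was 429 ± 15.2 TPM in WT, 410 ± 63.9 in labelled *ERF* KD, 487 ± 59.9 in labelled *CIC* KO and 509 ± 11.9 in *CIC-ERF* codeletion.

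*CCND3*, which encodes cyclin D3, was at 53.9 and 59.2 CPM in WT and at 44.4 and 61.6 in labelled *ERF* KD. It was at 68.3 and 74.7 CPM in labelled *CIC* KO and at 66.5 and 73.1 in *CIC-ERF* codeletion, above all 4 libraries of WT and labelled *ERF* KD. Neither of these groups passed the test against WT. Between labelled *ERF* KD and labelled *CIC* KO the log2 fold change was -0.43 (SE 0.171, adjusted p = 0.175, edgeR), and with the replicate letter as a block it passed (-0.44, SE 0.125, adjusted p = 0.045).

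Of the CIP/KIP inhibitors, *CDKN1A* passed the test and *CDKN1B* and *CDKN1C* did not, other than with the replicate block or with no filter on low counts. *CDKN1A* (chr6:36676460-36687339) encodes p21, an inhibitor induced by p53. It was at 103 and 180 CPM in WT, 27.9 and 46.4 in labelled *ERF* KD, 196 and 239 in labelled *CIC* KO, and 46.9 and 97.3 in *CIC-ERF* codeletion. Labelled *ERF* KD and *CIC-ERF* codeletion lay below all WT libraries, with replicate A of each group below its replicate B. *CDKN1A* fell by 1.93 on the log2 scale in labelled *ERF* KD against WT (SE 0.406, adjusted p = 0.021, edgeR) and was lower there than in labelled *CIC* KO (-2.55, SE 0.414, adjusted p = 0.00694, edgeR). The first call was lost without labelled *ERF* KD replicate A (-1.62, adjusted p = 0.0986) and without WT replicate B (-1.48, adjusted p = 0.108).

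For *CDKN1A* in *CIC-ERF* codeletion the call depended on the fit. Against WT the log2 fold change was -0.98 (SE 0.394, adjusted p = 0.345, edgeR) without the replicate block and -1.005 (SE 0.169, adjusted p = 0.0276) with it. Against labelled *CIC* KO it was -1.60 (SE 0.399, adjusted p = 0.376) without and -1.68 (SE 0.171, adjusted p = 0.0209) with the block, and against labelled *ERF* KD 0.95 (SE 0.398, adjusted p = 0.172) without and 0.92 (SE 0.172, adjusted p = 0.00695) with it. With no filter on low counts and no block all 3 passed (adjusted p = 3.43e-05, 1.531e-12 and 1.389e-05 in the same order, edgeR). The log2 fold changes of that fit were nearly unchanged (-0.98, -1.59 and 0.95), so these passes do not rest on a larger difference. DESeq2 called the second (adjusted p = 0.00323) and the third (adjusted p = 0.0485) and not the first (adjusted p = 0.125). With 1 library left out, the value against WT ran from -0.52 without WT replicate B and -0.55 without *CIC-ERF* codeletion replicate A to -1.60 without *CIC-ERF* codeletion replicate B. That against labelled *ERF* KD ran from 0.34 without *CIC-ERF* codeletion replicate B to 1.395 without its replicate A, and none of these passed. By size over both libraries, *CIC-ERF* codeletion thus lay between labelled *ERF* KD and WT. In labelled *CIC* KO against WT, where both libraries were above both of WT, *CDKN1A* differed by 0.62 (SE 0.39) and did not pass in any fit.

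*CDKN1B* encodes p27, an inhibitor of CDK2 complexes. It was at 94.5 and 87.6 CPM in WT, 93.2 and 64.2 in labelled *ERF* KD, 88.9 and 70.5 in labelled *CIC* KO, and 123 and 99.6 in *CIC-ERF* codeletion. Both *CIC-ERF* codeletion libraries were above the other 6. The log2 fold change against labelled *ERF* KD was 0.50 (SE 0.206, adjusted p = 0.168, edgeR) and the interaction 0.69 (SE 0.292, adjusted p = 0.269), and with the replicate block both passed (0.51, adjusted p = 0.0213, and 0.72, adjusted p = 0.0382). With no filter on low counts the first passed as well (adjusted p = 0.0435). *CDKN1C*, which encodes p57, had 13 and 2 estimated counts in WT, 16 and 1 in labelled *ERF* KD, 0 and 0 in labelled *CIC* KO, and 34 and 15 in *CIC-ERF* codeletion. Set against a floor of 3 counts over the group at 0, it was at least 16.7-fold higher in *CIC-ERF* codeletion than in labelled *CIC* KO. This difference did not pass (adjusted p = 0.41, edgeR). With the replicate block *CDKN1C* passed in the interaction (7.73, SE 6.74, adjusted p = 0.0476), an estimate that includes the group at 0. With no filter it passed in *CIC-ERF* codeletion against labelled *CIC* KO (adjusted p = 0.000116), in labelled *ERF* KD against labelled *CIC* KO (adjusted p = 0.00261) and in the interaction (adjusted p = 0.00171), each of which includes the group at 0. The CIP/KIP sum was 169 ± 28.1 TPM in WT, 77.9 ± 2.41 in labelled *ERF* KD, 213 ± 0.778 in labelled *CIC* KO and 121 ± 10.5 in *CIC-ERF* codeletion.

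Among the INK4 inhibitors, *CDKN2A* had its highest levels in both libraries labelled *ERF* KD, at an adjusted p close to the threshold. *CDKN2A* (chr9:21967753-21995301) was at 85.7 and 125 CPM in WT, 169 and 158 in labelled *ERF* KD, 103 and 115 in labelled *CIC* KO, and 105 and 110 in *CIC-ERF* codeletion. The lower labelled *ERF* KD library was above the highest of the other 6. The log2 fold change against WT was 0.64 (SE 0.179, adjusted p = 0.0606, edgeR), and it passed with the replicate block (0.66, SE 0.151, adjusted p = 0.0191), with DESeq2, with limma and with no filter. *CIC-ERF* codeletion against labelled *ERF* KD (-0.61, SE 0.179, adjusted p = 0.065) and labelled *ERF* KD against labelled *CIC* KO (0.59, SE 0.179, adjusted p = 0.0839) stood in the same place and passed with the block (adjusted p = 0.0227 and 0.0298) and in those same alternatives. With 1 library left out, the value in labelled *ERF* KD against WT ran from 0.39 without WT replicate A to 0.94 without WT replicate B. Chromosome 9 as a whole was higher there, with a median log2 fold change of 0.19 over 597 genes, 419 of them above 0, against 0.01 over all genes, and the part of this in the *CDKN2A* value was not tested. Of its 6 tested neighbours, *MTAP* (0.05, adjusted p = 0.873), *DMRTA1* (-0.12, adjusted p = 0.846), *CDKN2B*, *AL359922.1* and *TUBB8P1* did not pass, and *ELAVL2*, 1722 kb away, rose by 1.04 (adjusted p = 0.0273).

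The counts of *CDKN2A* were mostly those of p16INK4A. Transcripts with exon 1α (4 of the 14 listed) were at 104 and 147 TPM in WT, 204 and 190 in labelled *ERF* KD, 130 and 144 in labelled *CIC* KO, and 130 and 115 in *CIC-ERF* codeletion. They held 66.7% to 90.3% of the gene's TPM in the 8 libraries, and CDKN2A-201 (ENST00000304494) led them. Transcripts that start with exon 1β, the p14ARF first exon (2 of 14), were at 0 to 1.24 TPM, at most 0.782% of the gene. They were listed at 0 in labelled *ERF* KD replicate B and *CIC-ERF* codeletion replicate A. A further 3 transcripts have a first exon upstream of exon 1β (3.90 to 9.86 TPM), and whether they also hold exon 1β was not examined. Another 5 start near exon 2 or after it (10.3 to 61.8 TPM) and cannot be assigned to either product.

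No *CDKN2A* transcript passed against WT in a fit over 67599 transcripts (edgeR), of which 0.438% passed in labelled *ERF* KD and 0% in labelled *CIC* KO and in *CIC-ERF* codeletion. CDKN2A-201 had a log2 fold change of 0.72 in labelled *ERF* KD against WT (SE 0.245, adjusted p = 0.376). Values per transcript rest on how kallisto divided the reads. The leading transcript shared 5.47% of its 31-base stretches with *CDKN2B*, and *CDKN2A* shares 341 exonic bases with the antisense RNA *CDKN2B-AS1*, which has no summed counts here.

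**Figure D2:**
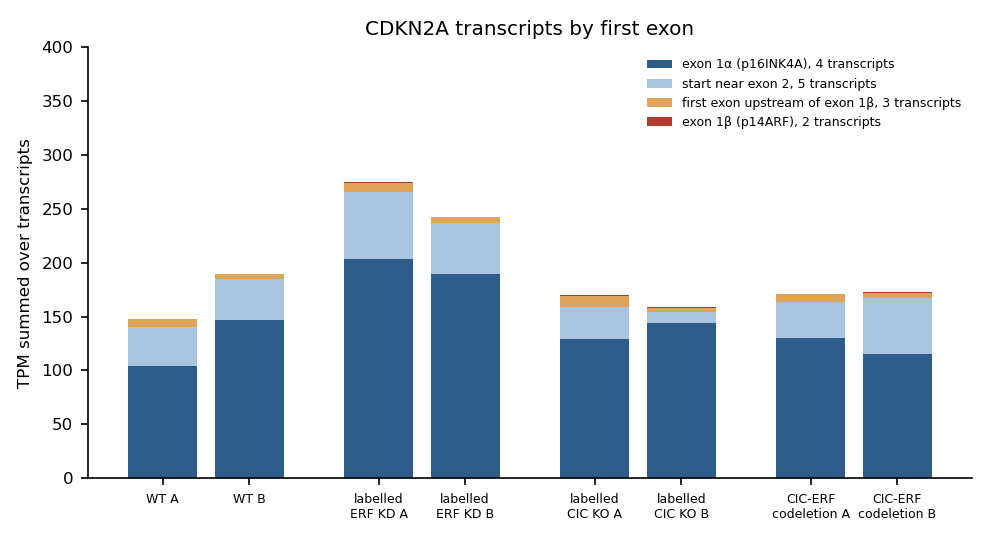
*CDKN2A* transcripts in each library, in TPM summed by first exon and stacked from 0. Exon 1α transcripts (dark blue) make up the greater part of every bar, from 104 to 204 TPM, and the exon 1β transcripts at the top reach at most 1.24 TPM.

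*CDKN2B*, which encodes p15INK4B, and *CDKN2C*, which encodes p18INK4C, did not pass in any of the 7 comparisons, other than *CDKN2C* with no filter on low counts. *CDKN2B* was at 88.1 and 65.1 CPM in WT, 103 and 41.7 in labelled *ERF* KD, 74.0 and 51.6 in labelled *CIC* KO, and 90.1 and 49.6 in *CIC-ERF* codeletion. All 4 groups overlapped, and in each of them replicate A was the higher library. *CDKN2C* was at 19.3 and 21.2 CPM in WT, 40.2 and 22.9 in labelled *ERF* KD, 20.9 and 16.02 in labelled *CIC* KO, and 15.5 and 25.0 in *CIC-ERF* codeletion. Its log2 fold change in labelled *ERF* KD against WT was 0.64 (SE 0.311, adjusted p = 0.251, edgeR), and labelled *ERF* KD replicate A alone lay far above the other libraries. With no filter this passed (adjusted p = 0.0366), as did *CIC-ERF* codeletion against labelled *ERF* KD and labelled *ERF* KD against labelled *CIC* KO, and without labelled *ERF* KD replicate A the value against WT was 0.16. The INK4 sum was 234.5 ± 14.7 TPM in WT, 329 ± 60.6 in labelled *ERF* KD, 220 ± 23.1 in labelled *CIC* KO and 228.5 ± 14.3 in *CIC-ERF* codeletion.

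*RB1* (chr13:48303726-48599436), the target of the D cyclin kinases, did not pass in any of the 7 comparisons. It was at 153 and 139 CPM in WT, 170.5 and 148 in labelled *ERF* KD, 128 and 130 in labelled *CIC* KO, and 147 and 117 in *CIC-ERF* codeletion. In labelled *ERF* KD against WT *RB1* differed by 0.13 (SE 0.149, adjusted p = 0.654, edgeR). The labelled *CIC* KO libraries lay below both of WT, with a log2 fold change of -0.17 (SE 0.149). Chromosome 13 as a whole was lower there, with a median of -0.18 over 234 genes, 50 of them above 0, against 0.01 over all genes. The part of this in the *RB1* value was not tested.

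Counted over the 10 genes, 2 passed in labelled *ERF* KD against WT (*CCND2* and *CDKN1A*, both lower), where 10.1% of all 14653 genes passed. In labelled *ERF* KD against labelled *CIC* KO the same pair passed, against a background of 9.40%. In *CIC-ERF* codeletion against labelled *ERF* KD 1 passed (*CCND2*), against 11.7%. In *CIC-ERF* codeletion against WT 0 of the 10 passed by edgeR, against 0.0682% of all genes. Before adjustment 1 had p under 0.05, against 13.3%, and 0 passed by DESeq2, against 3.06%. In labelled *CIC* KO against WT 0 passed by edgeR, as did 0% of all genes. Before adjustment 1 had p under 0.05 there, against 4.01%, and 0 passed by DESeq2, against 0.177%. In *CIC-ERF* codeletion against labelled *CIC* KO 0 passed by edgeR, again against 0%. Before adjustment 3 had p under 0.05 there, against 8.30%, and 1 passed by DESeq2 (*CDKN1A*), against 1.0%. The median log2 fold change of the 10 genes was 0.02 in labelled *ERF* KD against WT, -0.14 in labelled *CIC* KO against WT and 0.09 in *CIC-ERF* codeletion against WT, where the medians over all genes were 0.01, 0.01 and 0.00.

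**Figure D3:**
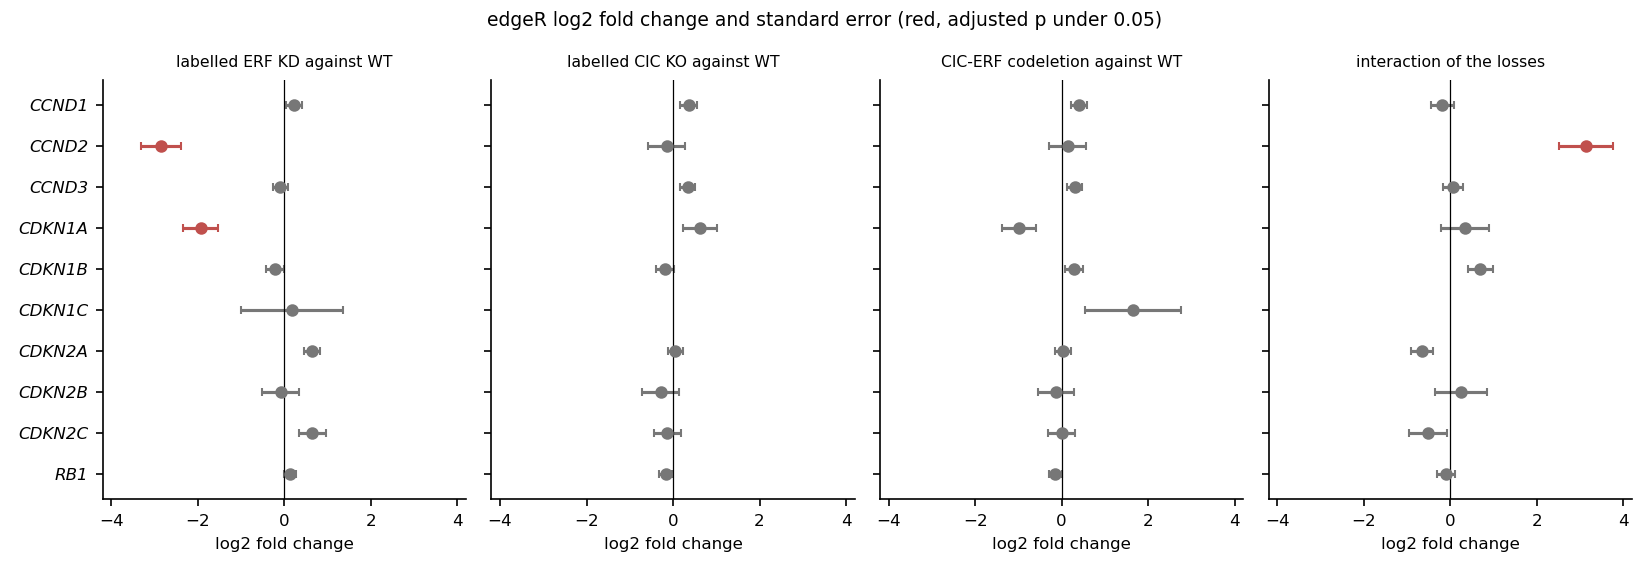
Log2 fold change of each gene with its standard error (edgeR; red, adjusted p under 0.05) in the 3 comparisons with WT and in the interaction. *CCND2* at -2.84 and *CDKN1A* at -1.93 are the red points of the first panel and *CCND2* at 3.13 that of the last, and *CDKN1C* is left out where a group is at 0.

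With the replicate block more genes passed, in the 10 and in the background. The number was 3 in labelled *ERF* KD against WT (background 18.2%), 1 in *CIC-ERF* codeletion against WT (2.49%), 4 in *CIC-ERF* codeletion against labelled *ERF* KD (20.6%), 1 in *CIC-ERF* codeletion against labelled *CIC* KO (0.334%), 4 in labelled *ERF* KD against labelled *CIC* KO (16.5%) and 3 in the interaction (9.55%). The letters divided these genes in a way that the group labels do not give. *CCND1*, *CCND2*, *CCND3* and *CDKN1A* were higher in B than in A in all 4 groups, as were 15.3% of all genes tested, and *CDKN1B* and *CDKN2B* were lower in B in all 4 groups, as were 15.2%. The difference within a group reached 1.46 for *CCND2* and 1.29 for *CDKN2B* (both in labelled *ERF* KD) and 1.05 for *CDKN1A* (in *CIC-ERF* codeletion), on the log2(CPM + 0.5) scale. This is given as a description, with no test.

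**Figure D4:**
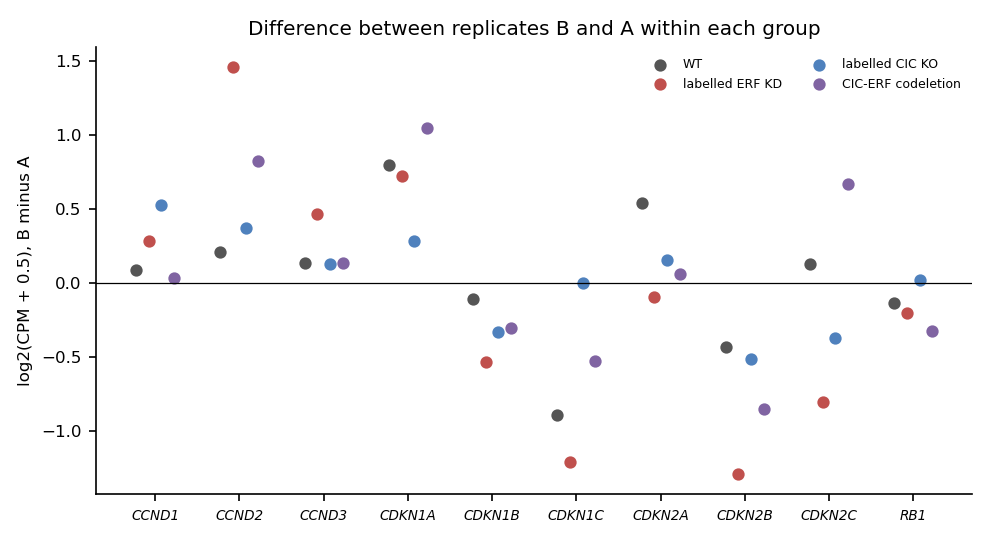
Difference between replicate B and replicate A within each group, on the log2(CPM + 0.5) scale, for each gene (points coloured by group). The 4 points of *CCND1*, *CCND2*, *CCND3* and *CDKN1A* are above 0 and those of *CDKN1B* and *CDKN2B* below it, down to -1.29.

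The genes around this pathway were described by lists. The lists, like the 10 genes, were chosen with earlier results of these data known, so their counts beside a background are a description. Of 33 partners of the RB pathway, 3 passed in labelled *ERF* KD against WT (edgeR), a share below the 10.1% of all genes that passed there. *CKS2*, a small subunit that binds CDKs, rose by 0.82 (adjusted p = 0.00566), *CCNA2*, the S-phase cyclin A2, by 0.50 (adjusted p = 0.0423), and *FBXW7*, which directs cyclin E to degradation, fell by 0.78 (adjusted p = 0.00879). The median of the list was -0.09. Of 29 tested E2F target genes, 1 passed there, a share again below 10.1%. It was *CDC45*, a part of the replicative helicase, which rose from 83.3 ± 6.99 to 134 ± 4.98 CPM (log2 fold change 0.68, adjusted p = 0.00951), and the list's median was -0.02. Both lists had 0 calls in labelled *CIC* KO against WT (background 0%) and in *CIC-ERF* codeletion against WT (background 0.0682%). *CDC45* was at 103 ± 0.754 CPM in labelled *CIC* KO and at 144 ± 3.23 CPM in *CIC-ERF* codeletion. With the replicate block, 3 partners rose and 2 fell and 2 E2F targets rose and 2 fell in labelled *ERF* KD against WT (background 18.2%), and 1 E2F target rose in *CIC-ERF* codeletion against WT (background 2.49%).

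Genes induced by p53, as *CDKN1A* is, were counted as a further list, also chosen with earlier results known. Of 23 such genes, which do not include *CDKN1A*, 6 passed as lower in labelled *ERF* KD against WT and 0 as higher, where 6.07% of all genes passed as lower. *TP53INP1*, a stress-induced promoter of cell death, fell from 19.4 ± 1.46 to 5.99 ± 1.38 CPM (log2 fold change -1.69, adjusted p = 0.0111). *FAS*, a death receptor, fell by 1.38, *MDM2*, the ubiquitin ligase of p53, by 1.25, and *BTG2*, an antiproliferative gene, by 0.999 on the log2 scale. *SESN2*, a stress-induced regulator of metabolism, fell by 0.90 and *TNFRSF10B*, a TRAIL receptor, by 0.69. The median of the list was -0.33, with 21 of 23 below 0. With the replicate block 8 passed as lower and 0 as higher (background 18.2% in either direction).

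In *CIC-ERF* codeletion against WT the median of the p53 list was -0.38, with 20 of 23 below 0. By edgeR 0 passed (background 0.0682%), or 5 as lower with the replicate block (background 2.49%). *TP53INP1* was at 3.51 ± 1.49 CPM there (-2.48, adjusted p = 0.0549, edgeR) and *MDM2* at 9.24 ± 1.59 CPM. In labelled *CIC* KO against WT the median was 0.23, with 17 of 23 above 0 and 0 passing (background 0%). Beside these medians stand the *CDKN1A* values of -1.93, -0.98 and 0.62 for labelled *ERF* KD, *CIC-ERF* codeletion and labelled *CIC* KO, in comparisons that share the WT libraries.

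**Figure D5:**
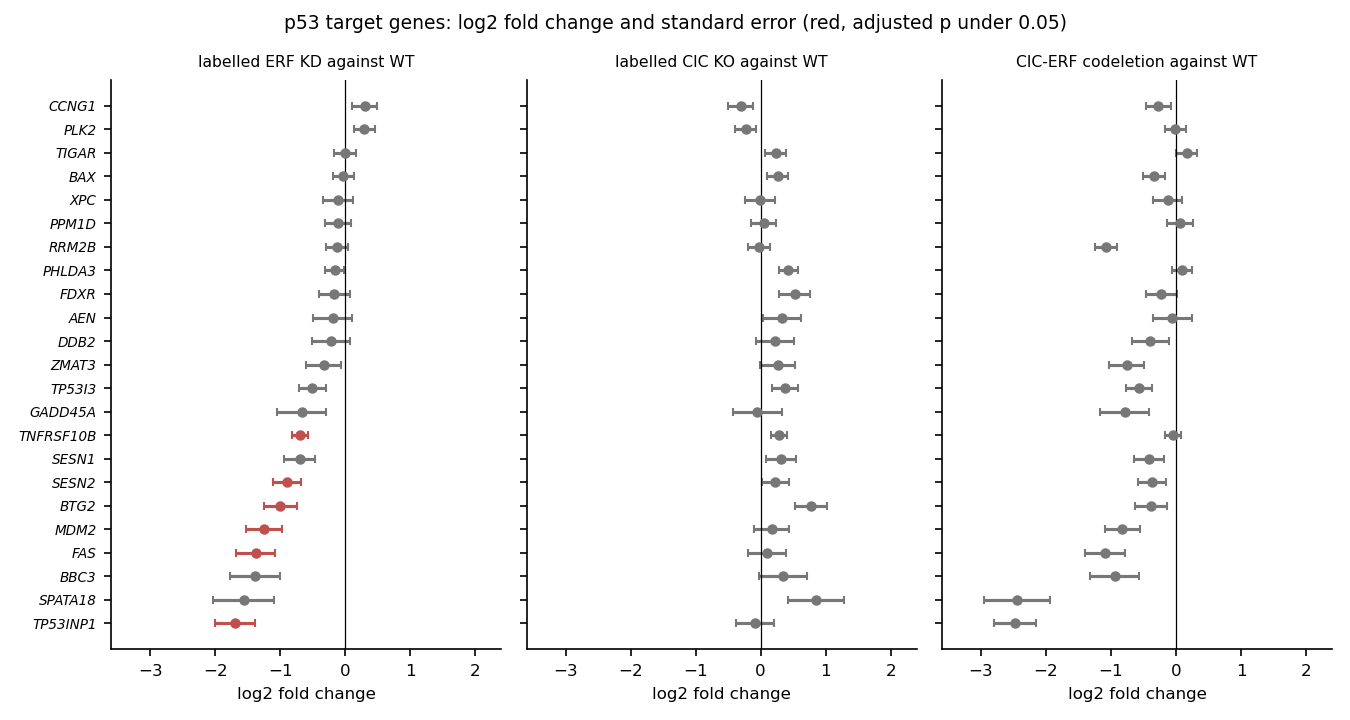
Log2 fold change and standard error (edgeR; red, adjusted p under 0.05) of the 23 p53 target genes in the 3 comparisons with WT, ordered by the first. Of the 23, 21 lie below 0 in labelled *ERF* KD, 20 in *CIC-ERF* codeletion and 6 in labelled *CIC* KO.

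Of 19 genes that induce D cyclins or repress *CDKN2A*, 4 rose and 2 fell in labelled *ERF* KD against WT (edgeR), where 10.1% of all genes passed. *ETV1*, *ETV5* and *ETV4*, the ETS factors that CIC represses, rose by 2.38 (adjusted p = 0.0003), 1.95 (adjusted p = 0.000717) and 1.51 (adjusted p = 0.00369). *TBX3*, a repressor of *CDKN2A*, rose by 1.93 (adjusted p = 0.0123). *EGR1* and *ETS2*, growth factor responsive factors, fell by 2.20 (adjusted p = 0.0123) and 0.94 (adjusted p = 0.00995). *ETV1*, *ETV5*, *ETV4* and *TBX3* were at 11.5, 24.9, 20.4 and 5.94 CPM in WT. They were at 60.0, 96.0, 58.3 and 22.6 CPM in labelled *ERF* KD and at 21.0, 60.9, 62.3 and 22.7 in *CIC-ERF* codeletion. *EGR1* and *ETS2* were at 72.8 and 235 CPM in *CIC-ERF* codeletion, against 47.5 and 229 in WT. Of the 19 genes 0 passed in *CIC-ERF* codeletion against WT (edgeR, background 0.0682%). In the interaction, *ETV1* was at -1.53 (adjusted p = 0.0212) and *ETS2* at 1.40 (adjusted p = 0.0153). With the replicate block 8 of these genes rose and 4 fell in labelled *ERF* KD against WT (background 18.2%), and 3 rose and 0 fell in *CIC-ERF* codeletion against WT (background 2.49%). Of 15 tested genes of the senescence-associated secretory response, 1 passed in labelled *ERF* KD against WT, a share below 10.1%. It was *GDF15*, a stress cytokine, which fell by 1.72 (adjusted p = 0.0427), and the median was 0.41. With the replicate block 1 rose and 2 fell there (background 18.2%), and 0 rose and 2 fell in *CIC-ERF* codeletion against WT (background 2.49%). Of the 3 tested genes at the *CDKN2A* and *CDKN2B* locus none passed.

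The protein-coding genes whose log2 level followed that of *CCND2* most closely over the 8 libraries were *MAL2* (Pearson r = 0.989), *CREG2* (0.988) and *N6AMT1* (0.988). For *CDKN1A* they were *COL17A1* (0.983), *SESN2* (0.981) and *BTG2* (0.978), of which the last 2 belong to the p53 list. These were the highest of 12606 genes, and the 8 points fall in 4 groups and share their depth and letters, so that the values are a description.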

How the data were processed

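RNA-seq was analysed for 8 PNT2 libraries grouped by the genotype label. The authors deposited 1 table per library in the output format of kallisto, holding raw estimated counts and TPM for each transcript. The authors' program derived the deposited TPM from these counts and scaled it to 1000000 per library. The submitters' processing notes name hg19 and the paper's methods RSEM, while the kallisto version, annotation and strandedness are not given in the sources used here. Of 180253 transcripts, 153245 (85.0%) were matched by identifier to GENCODE release 29 and summed over 33791 genes, which kept 93.2% to 93.3% of the counts. Sums were rounded, normalized by TMM, filtered with filterByExpr and tested with edgeR 4.0.16 (glmQLFit, glmQLFTest) in 1 fit of all 4 groups, with Benjamini-Hochberg adjustment over 14653 genes and a threshold of 0.05. Transcripts were tested in the same way. The script was tested on simulated counts.

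Replicates differed by more than sampling noise (chi-square per degree of freedom 21.7 to 43.4). The difference between B and A correlated across genes at 0.215 to 0.441 for each of the 6 combinations, so a fit with the letter as a block was run as an alternative to the unpaired one, although no source says what a letter stands for. Alternatives were DESeq2 1.42.0, no filter, the replicate block, length-scaled counts, limma 3.58.1 on log2(TPM + 1) and log2(TPM + 0.1), only the groups compared, a minimum log2 fold change of 1, and each library left out. Floors cover counting error only. Named were the 10 genes, called genes of each list (at most 6), *ERF*, *CIC*, the 3 tested neighbours on each side of *RB1* (not reported here), *CCND1* and *CDKN2A*, and the 3 genes of most similar level. *SPATA18* and other uncalled genes appear in a plot only. The members and lists were chosen with earlier results of these data known.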

Additional observations from a re-analysis of the deposited data

Results flagged for a closer look

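*CCND2* is listed because its change differed between backgrounds by the interaction test (edgeR). The difference between the change from labelled *CIC* KO to *CIC-ERF* codeletion and that from WT to labelled *ERF* KD was 3.13 on the log2 scale (adjusted p = 0.0313). It rests on the labelled *ERF* KD libraries, at 15.2 and 42.7 CPM, whose *ERF* level goes against their label.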

How the results depend on the processing

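The 4 values of *CCND2* and the pair of *CDKN1A* that passed kept their direction under every alternative run. Of the 10 genes, the number called in labelled *ERF* KD against WT was 4 with no filter (11.6% of all genes tested under the same setting) and 1 with a minimum log2 fold change of 1 (2.55%). It was 1 with no filter (3.46%) and 1 with the replicate block (2.49%) in *CIC-ERF* codeletion against WT. In *CIC-ERF* codeletion against labelled *ERF* KD it was 3 with DESeq2 (15.8%), 5 with no filter (12.6%), 4 with the replicate block (20.6%) and 2 with limma at a pseudocount of 1 (7.60%) or 0.1 (8.09%). In *CIC-ERF* codeletion against labelled *CIC* KO it was 1 with DESeq2 (1.0%), 2 with no filter (1.92%) and 1 with the replicate block (0.334%). In labelled *ERF* KD against labelled *CIC* KO it was 5 with no filter (10.7%) and 4 with the replicate block (16.5%). There it was 3, with *CDKN2A* added, with DESeq2 (12.9%) and with limma at either pseudocount (6.82%). In the interaction it was 2 with no filter (7.41%), 3 with the replicate block (9.55%) and 0 with the minimum fold change (1.25%). Leaving out 1 library gave 1 to 2 in labelled *ERF* KD against WT and in *CIC-ERF* codeletion against labelled *ERF* KD, and 0 to 1 in the interaction. *CCND2* changed sign in labelled *CIC* KO against WT (-0.34 to 0.026, above 0 without labelled *CIC* KO replicate A) and in *CIC-ERF* codeletion against WT (-0.33 to 0.49, below 0 without *CIC-ERF* codeletion replicate B). The replicate block changed no call of the 10 genes other than those given. With no filter, *CCND2* in labelled *ERF* KD against WT had an SE of 0.201, against 0.465 with the filter, at a log2 fold change of -2.84 in both. Adjusted p-values with no filter are therefore not on a par with those of the other fits. The cause of these shifts was not tested. No *CDKN2A* transcript passed under any of the alternatives run for transcripts. With 2 libraries a group, small changes in genes as low as *CDKN1C* could not be detected at this depth.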
